A study of Mus musculus with 6 samples.

Results

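The H3K27ac landscape of wild-type RAW264.7 cells was described from 28644 peaks on chromosomes 1 to 19, of 29276 peaks in the deposited wild-type list. The members were chosen by chromosome alone, which left out 601 peaks on chromosome X, 2 on chromosome Y and 29 on scaffolds. RAW264.7 is an established mouse line of macrophage-like cells, grown in DMEM with 5% serum, and the labels call the wild-type cells naive and state no stimulus. The series holds 6 libraries, a ChIP and an input each for wild-type, Mfp2 knockout and Bmal1 knockout cells, and only the wild-type pair entered here: 1 library enriched with an H3K27ac antibody and 1 input library made with no antibody. With 1 library of each kind there is no replicate spread, so every value below describes this pair of libraries and no p-value is given. Intervals of folds and of summed tags cover counting only. Those of medians and of the share of gaps treat the peaks or gaps of this list as independent draws. They measure neither counting error nor spread between cultures.

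H3K27ac is acetylation of lysine 27 of histone H3, written by the acetyltransferases p300 and CBP and found on nucleosomes that flank active promoters and active enhancers. A promoter or an enhancer usually carries a compact block of the mark, whereas loci with many enhancers can carry it over long stretches, which are often described as super-enhancers or stretch enhancers. In macrophages, lineage factors such as PU.1 and C/EBP family members open enhancers on which the mark is laid down. Whether a peak is a promoter or an enhancer could not be told here, because the gene table used is of build GRCm38 and the peaks are in mm39. For the same reason the macrophage label was not checked against marker genes, and no sequence is shown.

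The ChIP library held 15.8 M tags and the input library 14.9 M. ChIP tags are given per 10 M tags of the library, as deposited, and input tags were brought to the same scale wherever a density is given. The peaks covered 64.0 Mb, or 2.42% of the genome size of 2650 Mb that the authors set. They held 38.04% of the ChIP tags and 3.53% of the input tags. The ChIP library was thus 15.7 times denser in the peaks than an even spread over that genome size, and the input library 1.46 times denser. Over all peaks together, depth-scaled ChIP tags stood at 10.8 times input tags.

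The acetylated regions fell into a class of very short ones and a broad class around 3 kb, and the second held most of the tags. The median width was 1709.5 bp (95% order-statistic interval 1679 to 1749). Exactly 500 bp, the length of a single search window, was the width of 5506 peaks, or 19.2%. Among wider peaks, the number per equal step of log width was highest between 2512 and 3162 bp, with 3486 peaks, after a low of 1571 between 1000 and 1259 bp beyond the shortest ones. Peaks of up to 1 kb made up 36.4% of the list but held 3.04% of its tags. Those over 2 kb and up to 5 kb were 37.6% of the peaks and held 64.7% of the tags. Beyond 10 kb there were 325 peaks, with 6.64% of the tags. The median width was 2799 bp among peaks of at least 8-fold enrichment and 2675 bp among those of at least 20 tags.

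**Figure D1:**
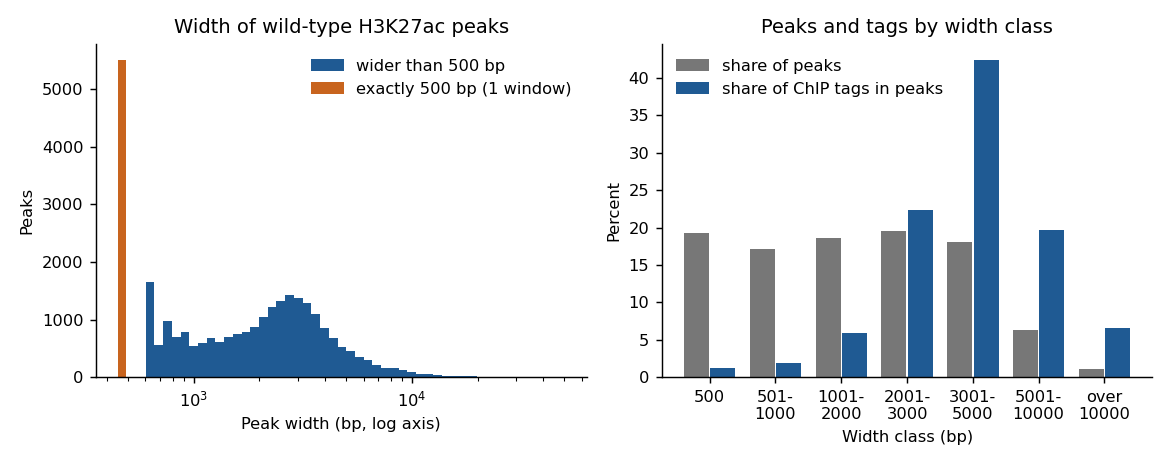
Left, number of peaks by width in bp on a log axis, with the 5506 peaks of exactly 500 bp drawn as 1 separate bar beside the others. Right, share of peaks and share of ChIP tags in each of the width classes, in percent: peaks of 3 to 5 kb are 18.0% of the list and hold 42.4% of its tags.

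Density did not go on rising with width. The median peak had 24.1 tags per kb (95% order-statistic interval 23.8 to 24.4), and the middle 50% of peaks lay between 16.4 and 49.4. It was 46.5 among peaks of at least 8-fold enrichment and 38.6 among those of at least 20 tags. In the 500 bp class the median was 15.2 tags per kb. It was 22.1 at 1 to 2 kb and 43.6 at 2 to 3 kb, and highest at 66.0 for 3 to 5 kb. Longer domains were less dense, with 47.6 at 5 to 10 kb and 47.1 above 10 kb. The widest domains therefore hold many tags through length, and the median density of whole peaks was highest at intermediate size. Density within a peak was not examined. Input density had the same shape, with medians of 2.69, 3.66, 5.77, 6.22, 5.12 and 4.48 tags per kb in those 6 classes, and its part in the ChIP densities was not tested.

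Tags were concentrated in a small share of the peaks. The strongest 10% (2864 peaks) held 48.0% of all tags in peaks and the strongest 1% (286 peaks) held 9.65%. The weaker 50% of the list held 5.83%. The median peak had 41.5 tags, and the range went from 5.07 to 2899.8.

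Named peaks show how differently a high tag count can be built. The strongest peak, at chr4:133477687-133486562, had 2899.8 tags in 8875 bp, or 327 per kb, against 149 input tags. Its fold over input was 28.9 (95% interval 24.6 to 34.3). The peak ranked second, at chr12:86927408-86947089, had 2585.4 tags over 19681 bp at 131 per kb and 16.6-fold over input. Both are single unbroken regions, but the second was the longer and held fewer tags. The third, at chr10:120447077-120491571, was also the widest peak: its 2579.7 tags lay over 44494 bp at 58.0 per kb, with 15.8-fold enrichment (13.9 to 18.1). The fourth and the fifth were chr10:79982344-80005217, with 2456.5 tags at 107 per kb, and chr15:85547512-85561472, with 2326.4 tags at 167 per kb. Their folds were 10.4 and 27.8.

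The widest domains were alike in density. After the one on chromosome 10 came chr4:122759056-122798194, of 39138 bp with 1843.3 tags at 47.1 per kb. On chromosome 19 a domain of 35775 bp (chr19:9025572-9061347) had 2035.4 tags at 56.9 per kb. Domains of 32646 bp (chr9:65429532-65462178) and 30626 bp (chr2:116801896-116832522) had 64.4 and 58.5 tags per kb. All 5 lay between 47.1 and 64.4 tags per kb, above the list median and far below the densest peaks. Their fold over input ran from 11.04 to 15.9, and input density from 3.66 to 5.20 tags per kb, on both sides of the 4.04 of the median peak.

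The densest peaks of at least 1 kb were compact. At chr8:19834176-19835594 the density was 521 tags per kb over 1418 bp, but input was also the highest of the list there, at 67.4 per kb, and the fold was 7.73 (6.49 to 9.26). At chr3:88855909-88859336 it was 509.7 tags per kb over 3427 bp with 26.6-fold enrichment (21.7 to 32.9). These peaks have nearly the same ChIP density, and their fold intervals do not overlap. The third, chr17:6743017-6745513, again had high input, with 422 tags per kb of ChIP, 43.0 of input and 9.80-fold enrichment. The fourth and the fifth, chr17:47165980-47171007 and chr15:36791288-36795673, had 398 and 397 tags per kb with 38.1-fold and 28.7-fold enrichment. Input was 10.4 to 19.1 tags per kb at the second, the fourth and the fifth, against 67.4 and 43.0 at the other two.

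High input marked a few sites. The highest after those on chromosome 8 and 17 just named were a second region on chromosome 8 (chr8:20697531-20698833), at 52.7 input tags per kb, a 500 bp peak at chr6:47636725-47637225 with 33.0, and chr19:59332332-59336007 with 27.2. Enrichment over input at these 3 was 7.05-fold, 4.45-fold and 6.25-fold. The interval of the chromosome 6 peak, 2.86 to 7.20, reaches below the authors' limit of 4-fold. Input spread evenly over the genome size would give 3.77 tags per kb.

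Input density was higher where ChIP density was higher. Over all peaks, median enrichment was lowest at intermediate density, but this was not so among peaks of 2 to 3 kb. The relation of input to ChIP density is in part set by the peak search. A peak had to reach 4-fold over input, so a sparse peak can enter the list only with low input. When peaks were ranked by ChIP tags per kb and split into 10 equal groups, median input went from 1.42 tags per kb in the sparsest group to 8.79 in the densest, or from 0.376 to 2.33 times an even spread. Median fold over input was 8.47 in the sparsest group and 5.44 in the fourth, and from there it was higher in each denser group, with 10.4 in the ninth and 16.9 in the densest. Across peaks, Spearman's rho between ChIP and input density was 0.86 over 28644 peaks that share both libraries. Among the 5612 peaks of 2 to 3 kb, where width hardly varies, rho was 0.81. There the sparsest of 5 equal groups had 2.97 input tags per kb and the densest 9.04. Median fold in these groups was 6.18, 6.62, 7.3, 9.095 and 14.13, from the sparsest to the densest. How much of either pattern the 4-fold limit sets was not tested.

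**Figure D2:**
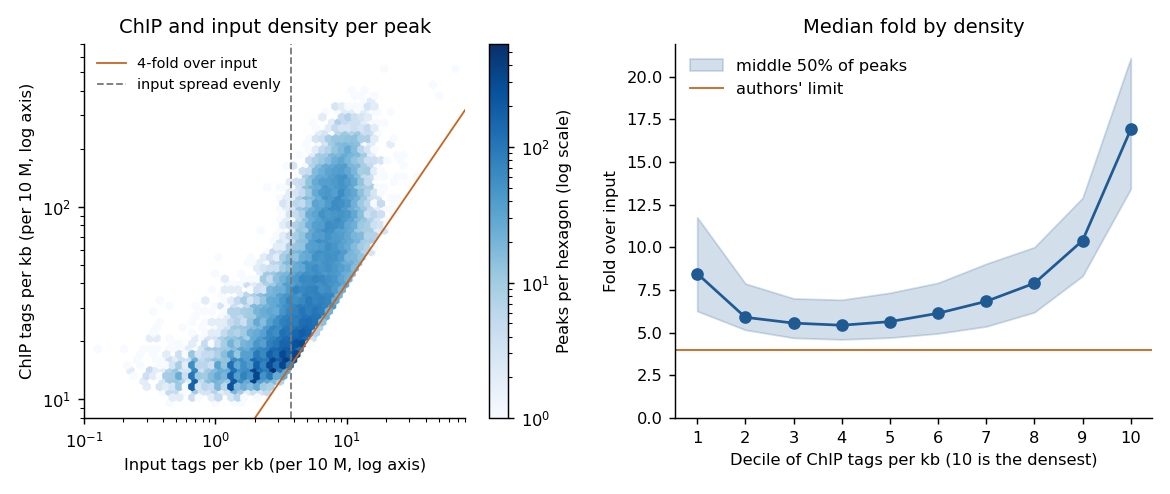
Left, ChIP against input tags per kb for each peak, both per 10 M tags on log axes, with the number of peaks per hexagon in colour, the 4-fold line and the input density of an even spread (3.77). Right, median fold over input in 10 equal groups of peaks by ChIP tags per kb, with the middle 50% of peaks shaded: it is lowest in the fourth group (5.44) and highest in the densest (16.9).

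Enrichment was at least 8-fold for 12003 of the 28644 peaks, or 41.9%. The median deposited fold was 7.06 (95% order-statistic interval 7 to 7.12), and 1476 peaks were above 20-fold, with a median width of 3150.5 bp and a median of 429.6 tags. Among peaks of at least 8-fold, a limit that itself raises it, the median fold was 11.7. Just inside the authors' limit, between 4-fold and 4.5-fold, lay 2501 peaks with a median width of 683 bp and 14.9 tags. At least 8-fold enrichment was reached by 27.1% of the 500 bp peaks, 21.3% of the wider ones up to 1 kb, 72.4% of those of 3 to 5 kb and 84.9% of those above 10 kb. The last 2 shares are above the 41.9% of all peaks, and the shares of short peaks are below it.

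Counting error limits what can be said of single weak peaks. A typical 500 bp peak rests on 12.0 counted ChIP tags and 2 input tags, a ratio of 5.65 with a 95% interval of 1.26 to 51.9. A typical peak of 3 to 5 kb rests on 382 and 34 tags, with 10.6-fold enrichment and an interval of 7.44 to 15.5. The lower bound was above 4-fold for 11349 peaks, or 39.6% of the list. By width it was above 4-fold for 0.0363% of the 500 bp peaks, 89.1% of those of 3 to 5 kb and all 325 above 10 kb. Fewer than 5 input tags lay under 10308 peaks. In the sparsest group by density the median was 1.5 input tags, so the high median fold of that group rests on very few counts.

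Neighbouring peaks were spaced very unevenly. The median gap between the edges of neighbours was 12849 bp (95% order-statistic interval 12484 to 13204), with the middle 50% between 3274 and 41405 bp. Of 28625 gaps, 14159 were at most 12500 bp, or 49.5% (95% Wilson interval 48.88 to 50.04), and these made up 2.62% of the sequence between peaks. At the other end, 474 gaps exceeded 1 Mb and made up 43.1% of it. Both values move with what is kept as a peak: the median gap was 24453 bp among peaks of at least 20 tags and 44615 bp among those of at least 8-fold enrichment, and 23.5% of the latter gaps were at most 12500 bp.

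The longest gaps were empty of peaks over several Mb. The longest, 11.47 Mb, lay on chromosome 15 between peaks ending at 12830073 and starting at 24300321. On chromosome 14, gaps of 11.45 and 9.02 Mb began at 87656614 and 106161157. Chromosome 6 had one of 8.66 Mb from 73241673 and chromosome 8 one of 8.22 Mb from 96615829. Peaks at the rims of these deserts differed widely in strength, and most had fewer tags than the list median of 41.5. The one before the second gap had 880.2 tags and 25.9-fold enrichment. The one after the fourth, with 347 tags, and the one before the fifth, with 122.5, were also above the median. The one before the fourth had 6.33 tags in 500 bp. Whether the gaps can be mapped by reads was not analysed here.

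The densest peaks stood farther from their neighbours than sparse ones. The median distance to the nearest peak was 3574 bp in the sparsest 10% by tags per kb and 10615 bp in the densest 10%. In the seventh of the 10 groups it was still 4266 bp, and over all peaks rho between this distance and density was 0.15. Among peaks of 2 to 3 kb the median distance was 4083 bp in the sparsest and 14192 bp in the densest of 5 groups. By width the distance was 3568.5 bp for 500 bp peaks, 8039 bp at 2 to 3 kb and 1573 bp above 10 kb, so the longest domains had the closest neighbours. Neighbours resembled each other little: across 7 bins of gap length, rho between the densities of the 2 flanking peaks lay between -0.01 and 0.07, over 474 to 8348 pairs from the same libraries.

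**Figure D3:**
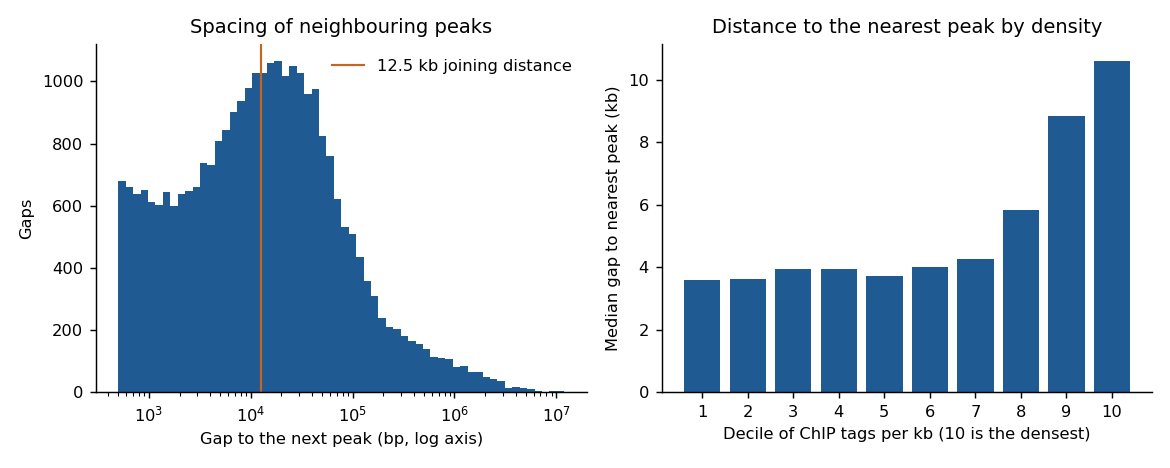
Left, number of gaps by length in bp on a log axis, with the joining distance of 12500 bp marked; 49.5% of gaps lie at or left of it. Right, median distance in kb to the nearest peak in 10 equal groups by ChIP tags per kb, which is 3574 bp in the first group and 10615 bp in the tenth.

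Peaks up to 12500 bp apart were joined into clusters, a distance often used to collect the parts of a super-enhancer. This gave 14485 clusters. Of these, 8500 held 1 peak, and the other 5985 held 20144 peaks, or 70.3% of the list. Clusters of 10 or more peaks numbered 155, with up to 32 peaks. The joining distance lies close to the median gap, so what counts as 1 cluster depends on it.

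Clusters were built from a strong, wide peak and weaker short ones. In clusters of 5 to 9 peaks the strongest peak had a median width of 4336 bp, 62.0 tags per kb and 11.2-fold enrichment. The remaining peaks of these clusters had medians of 1072 bp, 19.6 tags per kb and 6.27-fold. In clusters of 10 or more peaks the strongest had a median of 6899 bp and 62.3 tags per kb, and the others 1320 bp and 20.1 tags per kb. A single peak with no neighbour within 12500 bp had medians of 1930 bp and 29.2 tags per kb. The strongest peak was also the widest in 5110 of the 5985 clusters of several peaks, or 85.4%. In 3053 clusters of 3 or more peaks it lay at an end in 1623, or 53.2%, where end positions make up 50.3% of positions on average. The strongest peak is picked by its tags, so its higher values are a description and carry no test.

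Ranked by summed tags, the clusters formed a smooth curve with no break. At the point where its slope reached 1 on axes scaled to 1, 1051 clusters lay at or above 780.15 tags, and the next had 780.1. These strong clusters were 7.26% of all clusters and held 34.1% of the tags and 26.6% of the sequence in peaks. The 100 strongest clusters held 6.81% of the tags in peaks and the 20 strongest 1.89%. These shares were not far above those of the sequence in peaks, 5.83% and 1.68%, and of the input tags in peaks, 6.38% and 1.74%.

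**Figure D4:**
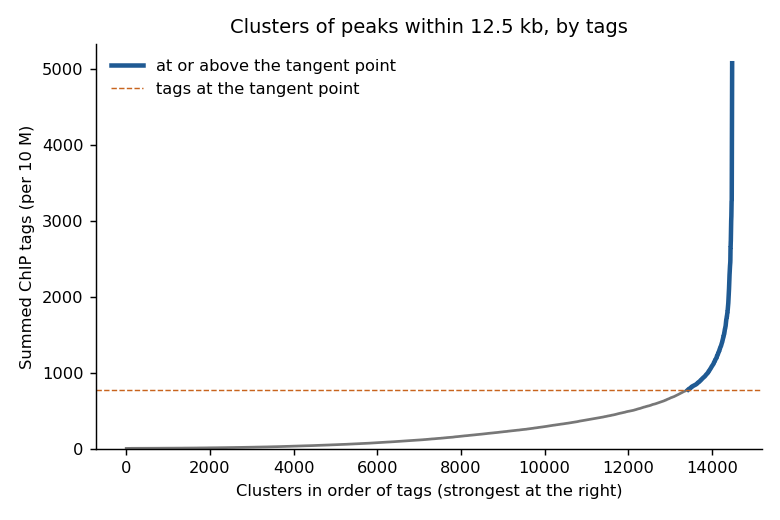
Summed ChIP tags per 10 M for each of the 14485 clusters in rising order, with the 1051 clusters at or above the tangent point drawn thick and the tags at that point (780.15) as a dashed line. The curve is continuous through that point.

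Strong clusters were not all crowded. A single peak made up 185 of the 1051, or 17.6%, and 2 peaks another 142. Crowded clusters were nevertheless strong far more often. Of the 8500 clusters of 1 peak, 2.18% were strong, against 85.8% of the 155 clusters of 10 or more peaks. Each peak adds to the summed tags by which clusters were ranked. Among the 724 of 3 or more peaks, the strongest peak held more than 50% of the tags in 453, or 62.6%. This is not particular to strong clusters. Over all clusters, strong or not, the median share of the strongest peak was 69.3% at 3 to 4 peaks. It was 53.1% at 5 to 9 peaks and 36.5% at 10 or more. The strongest cluster of 1 peak ranked 71st, at chr17:5043166-5051188, with 2175.1 tags in 8022 bp, 271 tags per kb and 31.2-fold enrichment. Its neighbours were 83250 and 53864 bp away. The median strong cluster had 4 peaks over 26.7 kb, with 12.49 kb of peak sequence at 88.4 tags per kb and 13.4-fold enrichment. Within the strong clusters, rho between the number of peaks and tags per kb was -0.80, over 1051 clusters that were all kept for their tags.

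The 20 strongest clusters lay on 13 chromosomes, with 3 of them on chromosome 19. Relative to each other, they ranged from sparse with much peak sequence to dense with little. They had 3062.8 to 5080 tags, 41.1 to 197.1 kb of span and 37.9 to 134 tags per kb of peak sequence. Summed over all peaks of the list the density was 59.4 tags per kb, and 6 of the 20 clusters were below that. Fold over input was 7.96 to 19.5, and the lowest bound of the 20 counting intervals was 7.34. In 8 of the 20 the strongest peak held more than 50% of the tags. Of their peaks, 91 were at least 8-fold over input, or 34.3%, below the 41.9% of all peaks. This is not particular to the 20: the share was 35.3% in all clusters of 10 or more peaks and 37.2% in those of 5 to 9. A further 39 peaks, or 14.7%, were 500 bp long, beside 19.2% of all peaks.

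The 6 loci under 55 tags per kb, a line drawn after the values were seen, were the sparse kind among the 20. At 37.9 to 51.9 tags per kb they were still denser than the median cluster (34.6) and the median peak (24.1). Their spans, 66.8 to 197.1 kb, overlapped the 41.1 to 107.9 kb of the clusters above 80 tags per kb. Their peak sequence, 62.8 to 126.0 kb against 24.4 to 47.9 kb, did not overlap, but it is the divisor of the density. The strongest cluster of all, chr5:53509507-53706622, spread 32 peaks over 197.1 kb and held 5080 tags (counting interval 4970 to 5193) at 40.3 per kb, with 9.60-fold enrichment (8.92 to 10.3). The highest sum moved with the settings: it was 3356 tags from peaks of at least 8-fold enrichment, on chromosome 7, and 8492 when peaks up to 25 kb apart were joined, on chromosome 19. With peaks of at least 20 tags the cluster on chromosome 8 that is otherwise second came first, with 4790 tags. No peak dominated the cluster on chromosome 5: its strongest, of 16501 bp, held 1033.1 tags or 20.3%. The third, chr16:24716237-24886204, had 27 peaks, 113.6 kb of peak sequence and 4302 tags at 37.9 per kb. Its 2 strongest peaks, of 30224 and 23243 bp, lay near its right-hand end with 1763.2 and 1074.5 tags, and after the last no peak followed for 1513592 bp. The cluster ranked eighth, chr1:190913438-191068585, was the weakest of the 20 in enrichment, with 7.96-fold (7.34 to 8.64), 20 peaks and 3523 tags.

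The remaining 3 of this kind were on chromosomes 19 and 2. On chromosome 19, chr19:9875612-9973215 had 14 peaks and 3594 tags at 48.6 per kb, with 762115 bp free of peaks on its left. Also on chromosome 19, chr19:8994583-9061347 packed 62.8 kb of peak sequence into 66.8 kb, or 94.1% of its span, mostly as domains of 35775 and 26416 bp. It had 3263 tags in 3 peaks. On chromosome 2, chr2:30914488-31061545 had 28 peaks with 3265 tags at 44.5 per kb, and only 3 of its peaks reached 8-fold. Input density in these sparse loci ran from 3.04 to 5.39 tags per kb.

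At the dense end, 11 of the 20 clusters were above 80 tags per kb. The second strongest of all, chr8:71046089-71153994, had 16 peaks, 47.1 kb of peak sequence and 4839 tags at 103 per kb, with 11.3-fold enrichment (10.4 to 12.3). Its tags came in separate blocks: a peak of 7543 bp at the right end had 1774.9 tags, and others of 5801 and 2972 bp near the left end had 1154.3 and 455.9. The fifth, chr17:35381686-35463375, likewise had its densest peaks at both ends, with 205 and 146 tags per kb, and lower domains between them. The sixth, chr7:15987827-16061205, had 3797 tags at 120 per kb, of which 51.8% lay in 1 peak of 12154 bp. Input density in the dense loci, 5.16 to 10.5 tags per kb, lay above that of the sparse ones except for an overlap between 5.16 and 5.39.

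In several dense clusters 1 peak held most of the tags. On chromosome 10, chr10:79974263-80015344 had 78.1% of its 3144.5 tags in a domain of 22873 bp, and fold over input was 9.55. On chromosome 15, chr15:85517641-85561472 had 75.9% of its 3066 tags in the fifth strongest peak of the list, and its fold of 19.5 (17.1 to 22.3) was the highest of the 20. On chromosome 8, chr8:84913345-84997805 had 65.0% of 3310 tags in a peak of 15819 bp, and fold was 15.4. Its neighbours were not all sparse: peaks of 3104 and 2706 bp had 113.7 and 127.9 tags per kb, beside 136.0 for the strongest. The cluster chr11:70521634-70592822 was the densest of the 20, at 134 tags per kb with 17.1-fold enrichment. Its strongest peak, of 6138 bp, had 299 tags per kb, and peaks of 2319 and 2910 bp on its right had 157 and 136.

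The other dense clusters were on chromosomes 19, 3 and 1. On chromosome 19, chr19:46454400-46520816 had 3443 tags, 52.6% of them in a peak of 7998 bp, the only peak of that cluster above 8-fold. Chromosome 3 had both chr3:95515734-95615641, with 18 peaks and 3188 tags, and chr3:96125733-96182804, with 9 peaks and 3084 tags. Fold over input was 11.03 in the former and 16.3 in the latter, and 2 of 18 against 6 of 9 peaks reached 8-fold. The last of the 20, chr1:86393249-86457482, had 3062.8 tags at 96.6 per kb. The 21st cluster had 3051 tags, within the counting interval of the 20th (2977 to 3150).

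Between these densities lay 3 clusters. The fourth strongest, chr7:79659774-79732106, had 9 peaks and 4261 tags at 77.6 per kb. A peak of 8447 bp with 250 tags per kb held 49.7% of them, and flanking domains of 10448 and 10022 bp had 63.6 and 51.4 per kb. The others were chr4:140354768-140431650, with 3264 tags at 73.2 per kb, and chr2:165756706-165839315, with 3207 at 62.4 per kb.

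**Figure D5:**
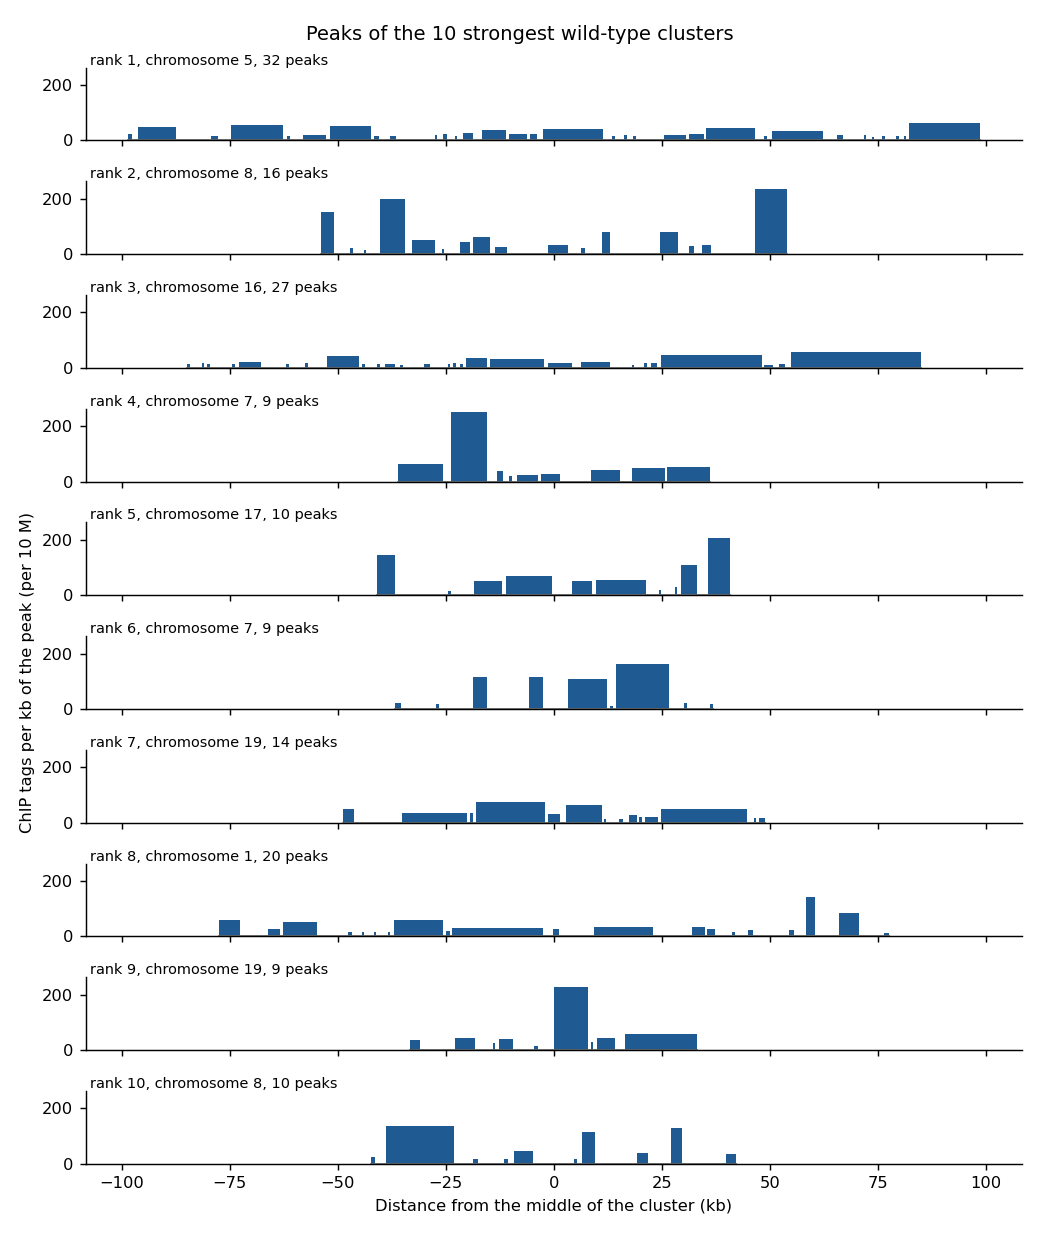
Each panel is 1 of the 10 strongest clusters: bars are its peaks, drawn to scale in kb from the middle of the cluster, and bar height is ChIP tags per kb of the peak, per 10 M. The cluster on chromosome 5 is low and spread over 197.1 kb, and those ranked 2, 4, 5 and 9 have peaks above 200 tags per kb.

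Chromosomes differed more in how many peaks they carried than in what the peaks were like. Per Mb between the first and the last peak, chromosome 11 had 19.2 peaks, chromosome 19 had 16.9 and chromosome 17 had 14.1. The lowest were chromosome 14 with 8.91, chromosome 3 with 9.40 and chromosome 18 with 9.47. By tags per Mb, chromosomes 11, 19 and 17 again led, with 2746, 2489 and 2065, and chromosomes 14, 18 and 13 were last, with 1086, 1178 and 1209. Median width per chromosome stayed between 1502 and 1869 bp and median fold between 6.75 and 7.88. Chromosome 11 carried 98 of the strong clusters, or 8.26 per 10 Mb, and chromosome 18 carried 25, or 2.86 per 10 Mb. Chromosome 19 was close to chromosome 11, with 8.11 per 10 Mb, and chromosome 14 was lowest, with 2.34. Median input per kb ran from 3.37 to 4.58, and what part input plays in these counts was not tested.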

How the data were processed

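H3K27ac ChIP and input libraries of wild-type RAW264.7 cells, 1 of each, were analysed through the authors' peak list; the knockout lists were not used. The submitters' processing notes name HOMER 5.1, MACS3 3.0.3, Picard 3.4.0, SAMtools 1.23, BWA 0.7.19-r1273, fastp 1.0.1 and build mm39, without roles. Per the file headers, the authors ran HOMER findPeaks in histone style: windows of 500 bp with at least 10 tags were stitched, and regions needed 4-fold enrichment and a Poisson p-value of at most 0.0001 over input. A header line also gives a maximum of 1 tag per bp; the deposited tags of the strongest scaffold peak come to 11.04 per bp, so the deposited tag columns were not held to it.

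The deposited normalized tag count is a signal per 10 M tags. Deposited input tags are a signal as counted, in steps of 0.5. The deposited fold is a ratio of ChIP over input, both scaled for depth. The deposited clonal ratio and findPeaks score were read but support no result. Depths were 15.8 M ChIP tags, per the file headers, and 14.9 M input tags, derived from the tag columns.

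With Python 3.11.15, pandas 2.3.3 and scipy 1.17.1, widths, tags per kb, edge-to-edge gaps and clusters within 12.5 kb were computed. Intervals are 95% order-statistic (medians), Wilson (shares), exact binomial (folds) or exact Poisson (summed tags). Functions were tested on simulated data. Named were the 20 clusters with most tags, the 5 peaks leading in tags, width, density (from 1 kb) and input density, the 5 longest gaps, and the 3 highest and lowest chromosomes. Members and rules were chosen with earlier results of these data known. Alternatives were other peak limits, joining distances, gap measures and rankings. Positions are as deposited, in mm39.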

Additional observations from a re-analysis of the deposited data

Results flagged for a closer look

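A pair of peaks outside chromosomes 1 to 19 carried more tags than any peak described above. They lie on unplaced scaffolds that no comparison uses, and their ChIP tags exceed input. On scaffold MU069435v1 a peak of 2097 bp had 14659.3 tags per 10 M, 2667.5 input tags and 8.17-fold enrichment. On scaffold JH584304v1 a peak of 1888 bp had 4484.7 tags, 687 input tags and 9.70-fold enrichment. The strongest peak on chromosomes 1 to 19 had 2899.8. Input density at these peaks was 856 and 245 tags per kb, against a median of 4.04 on chromosomes 1 to 19. Together they held 91.9% of the tags of the 29 scaffold peaks and 0.495% of those of the whole list. The cause was not tested.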

How the results depend on the processing

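Over 10 alternative settings, each applied to the summary values it bears on, 43 values were recomputed, of which 18 stayed within the counting interval or, for a count, within 1.5 times. With peaks of at least 8-fold enrichment only, the median width was 2799 bp, median density 46.5 tags per kb, median gap 44615 bp, 23.5% of gaps were at most 12500 bp, median fold was 11.7, the 100 strongest clusters held 6.86% of tags and the strongest held 3356. With peaks of at least 20 tags these were 2675 bp, 38.6, 24453 bp, 34.8%, 8.13, 6.39% and 4790, the last on chromosome 8. With chromosome X the 100 strongest held 6.73%. With input subtracted, median density was 20.04 tags per kb. Centre to centre, the median gap was 15303 bp and 44.7% were at most 12500 bp. Joining within 5, 10 and 25 kb gave the 100 strongest 5.35%, 6.38% and 9.82% of tags. The strongest cluster held 3465 tags at 5 kb, on chromosome 17, and 8492 at 25 kb, on chromosome 19. Ranked by tags less input, the values were 6.87% and 4551. The strong clusters numbered 702 at 25 kb and 1466 at 5 kb. Of the 20 strongest clusters, 19 were kept when ranked by tags less input, 17 at 10 kb, 10 at 5 kb, 9 at 25 kb, 9 at 8-fold, 16 at 20 tags and 0 when ranked by tags per kb. The values by gene start were not run, since the gene table is of another build. No paired analysis was possible because each group has 1 library.

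Depth limits short peaks most: those under about 1 kb rest on few input tags, and their single values should not be ranked against each other. Without a replicate, no spread between cultures is known. The tag limit per window and the fold limit also shape the lower end of every distribution given here.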

Other observations

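Chromosome X lay outside the range of chromosomes 1 to 19 in density, input, fold and spacing. Its 601 peaks had a median width of 1690 bp, beside 1709.5 bp on chromosomes 1 to 19, but 13.6% of them were 500 bp long, below the lowest of those chromosomes (17.4%). Median density was 19.03 ChIP tags per kb and 2.29 input tags per kb, below the lowest of chromosomes 1 to 19 (20.9 and 3.37). Median fold over input was 10.98, above the highest of those chromosomes (7.88), and the median gap was 31372 bp, above their highest (16669.5 bp). The part of the lower input in the higher fold was not tested.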
